A study of Homo sapiens with 8 samples.

Results

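The genes described here encode the pre-B cell receptor and the proteins that carry its signal, and they were chosen by name: *VPREB1*, *IGLL1*, *CD79A*, *CD79B*, *BLNK*, *SYK*, *BTK*, *LYN*, *RAG1* and *DNTT*, 10 genes of the 60754 genes and spike-in sequences listed. RNA-seq was available for 8 libraries in 4 groups of 2, all from SEM, an established line of B-ALL (leukemia of B-cell precursors) with a rearranged *KMT2A* gene. All 8 came from CTCF AID2 cells. As the study describes its clones, which were matched to these libraries by clone and state, both alleles of *CTCF* end in the miniAID-mClover3 degron tag and a lentiviral cassette with the MND promoter expresses a mutant of the rice F-box protein OsTIR1 together with Zeocin resistance, so that the auxin analog 5-Ph-IAA triggers degradation of CTCF. The groups were parental and resistant cells of the clones C17.2 and C3.2, and parental cells were untreated. Resistant cells had grown through 36 days in 5-Ph-IAA (1 μM) and Zeocin (100 μg/ml), and were then kept without either agent for 48 h. The study describes a truncated CTCF without the tag in C17.2 resistant cells, beside tagged CTCF that returned once auxin was withdrawn, and a full-length CTCF with an altered tag in C3.2 resistant cells. Each clone grew from a single cell. The library names of the clones belong to 2 separate runs of numbers, whose meaning the labels do not give, so a level that differs between the clones cannot be told apart from a difference between these sets of libraries, and drug exposure and resistance cannot be told apart within a clone. The growth protocol in the labels also names a Zeocin-selected virus for *MBNL1* that the study does not describe for these clones, and whether any of these cells received it is not given in the sources used here. The labels do not say whether the 2 libraries of a group came from separate cultures, and p-values measure only the spread between these libraries.

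Before an immunoglobulin light chain exists, a developing B cell pairs its μ heavy chain with a surrogate light chain made of VPREB1 and IGLL1 (λ5). The complex sits in the membrane with the CD79A and CD79B pair, whose cytoplasmic tails are phosphorylated by SRC family kinases such as LYN and then recruit SYK. The adaptor BLNK links SYK to BTK and phospholipase Cγ2. RAG1 and its partner RAG2 cut immunoglobulin gene segments, and terminal deoxynucleotidyl transferase, the product of *DNTT*, adds bases at the joints. In B-cell leukemia, expression of these genes is used to place a case along this path of development.

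Sequence just before the RefSeq transcription start (250 bases, GRCh38.p14) was available for 8 of the 10 genes. It is shown for *IGLL1* (chr22:23580291-23580540, reverse strand), *VPREB1* (chr22:22244536-22244785, forward strand) and *CD79A* (chr19:41877029-41877278, forward strand), because these encode parts of 1 complex and their RNA differed in how much it changed. Capitals mark the E-box CAGGTG, a motif bound by the E2A proteins, which *TCF3* encodes.
IGLL1: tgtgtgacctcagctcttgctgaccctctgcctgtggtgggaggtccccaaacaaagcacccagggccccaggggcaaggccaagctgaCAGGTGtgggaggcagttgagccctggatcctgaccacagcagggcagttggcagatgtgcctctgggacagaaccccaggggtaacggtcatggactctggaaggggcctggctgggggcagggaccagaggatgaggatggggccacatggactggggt
VPREB1: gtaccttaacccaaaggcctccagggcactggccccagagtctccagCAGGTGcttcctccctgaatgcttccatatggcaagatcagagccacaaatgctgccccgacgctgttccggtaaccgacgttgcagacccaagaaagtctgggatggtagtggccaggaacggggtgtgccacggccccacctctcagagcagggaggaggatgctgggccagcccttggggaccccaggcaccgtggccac
CD79A: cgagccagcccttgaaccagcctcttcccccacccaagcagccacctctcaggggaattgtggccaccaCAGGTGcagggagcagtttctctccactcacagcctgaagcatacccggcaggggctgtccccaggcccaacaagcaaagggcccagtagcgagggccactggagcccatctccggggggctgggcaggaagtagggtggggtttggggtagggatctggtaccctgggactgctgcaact
The E-box lay 161 to 156 bases before the start in *IGLL1*, 203 to 198 before it in *VPREB1* and 181 to 176 before it in *CD79A*. Motifs were searched on both strands. The E-box was found before 1 or more starts of 6 of the 8 genes (also *BLNK*, *SYK* and *DNTT*), and in 17.5% of all 35116 such windows. Counts of the 8 genes are per gene, whereas the shares of all windows are per window. *SYK* and *BTK* had more than 1 window each, so these counts and shares are not strictly comparable. CAGCTG, the other E-box searched, reads the same on both strands and was found in *BLNK* and *RAG1* (2 of 8, against 14.0% of windows), and TGGGAA, an IKZF1 motif, was found in *SYK* (1 of 8, against 20.8%). The EBF1 motif TCCCNNGGG and the FOXO motif TGTTTAC were in none of the 8, and in 7.84% and 2.98% of all windows. Each of the 3 windows shown held 1 match in all, so no motifs overlapped there. *CD79B* and *LYN* were without an entry. Whether any of these motifs has a part in the RNA changes was not tested.

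Levels are given as deposited TPM (RNA abundance corrected for transcript length, with 1 fixed total per library), which are comparable between genes. Changes are differences in log2(scaled TPM + 1) between resistant and parental cells of a clone, after the libraries were scaled to each other so that the median of the 15614 tested genes did not shift, and they understate the change of genes at low TPM. Adjusted p-values come from limma with Benjamini-Hochberg adjustment over all tested genes, and a gene passed the test below 0.05. Where groups did not overlap, this only describes them, because 2 libraries against 2 allow a two-sided exact permutation p of 0.333 at the smallest. The values listed were TPM only, so the depth of each library is unknown. Between 13368 and 14135 genes reached 1 TPM in a library, and scaling factors ran from 0.893 to 1.16. RNA of the tagged gene, *CTCF*, which does not report on its protein, was 33.7 to 35.4 TPM in C17.2 parental, 51.1 to 54.7 in C17.2 resistant, 32.2 to 32.3 in C3.2 parental and 41.5 to 44.2 in C3.2 resistant cells.

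The cells expressed the B-lineage factor gene *PAX5* in all 8 libraries, at 116 to 193 TPM. Of 14 markers of B-cell leukemia, a list that includes 6 of the genes described here, 11 reached 1 TPM in a library, and *DNTT*, *RAG1* and *CD24* did not. The summed TPM of that list was 1007 to 1069 in C17.2 parental, 934 to 940 in C17.2 resistant, 983 to 1045 in C3.2 parental and 890 to 921 in C3.2 resistant cells. That sum includes *IGLL1*, *VPREB1*, *CD79A* and *CD79B*, so its fall is no separate evidence and does not describe the other markers. Within it, mean *IGLL1* alone went from 85.1 to 20.3 TPM in C17.2 and from 154 to 30.8 TPM in C3.2. All 8 markers linked to *KMT2A* rearrangement reached 1 TPM, and their summed TPM, not scaled between libraries, was higher in both resistant groups (1073 to 1079 against 891 to 936 in C17.2, and 848 to 889 against 759 to 791 in C3.2). By gene, 1 of the 8 passed the test as higher and 1 as lower in C17.2 (median change 0.06). In C3.2, 2 passed as higher and 1 as lower (median change 0.09). Over all tested genes, 13.4% passed as higher and 13.9% as lower in C17.2, and 4.46% and 6.9% in C3.2. Of 10 markers of mature B and plasma cells, 2 reached 1 TPM (*IGHD* and *MS4A1*), with sums of 19.3 to 19.9, 20.5 to 20.6, 11.7 to 12.6 and 13.02 to 14.9 TPM in the same order of groups. T cell and NK cell markers reached 1 TPM for 3 of 12 (*TRAC*, *NKG7* and *NCAM1*), with sums between 53.1 and 60.9 in all groups and *CD3D*, *CD4* and *CD8A* at 0. Myeloid markers did so for 3 of 10 (*CD33*, *CSF1R* and *LYZ*), with sums of 11.4 to 12.55, 7.00 to 10.0, 4.30 to 5.86 and 7.40 to 8.04 TPM. The part of these marker levels in the results below was not tested.

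**Figure D1:**
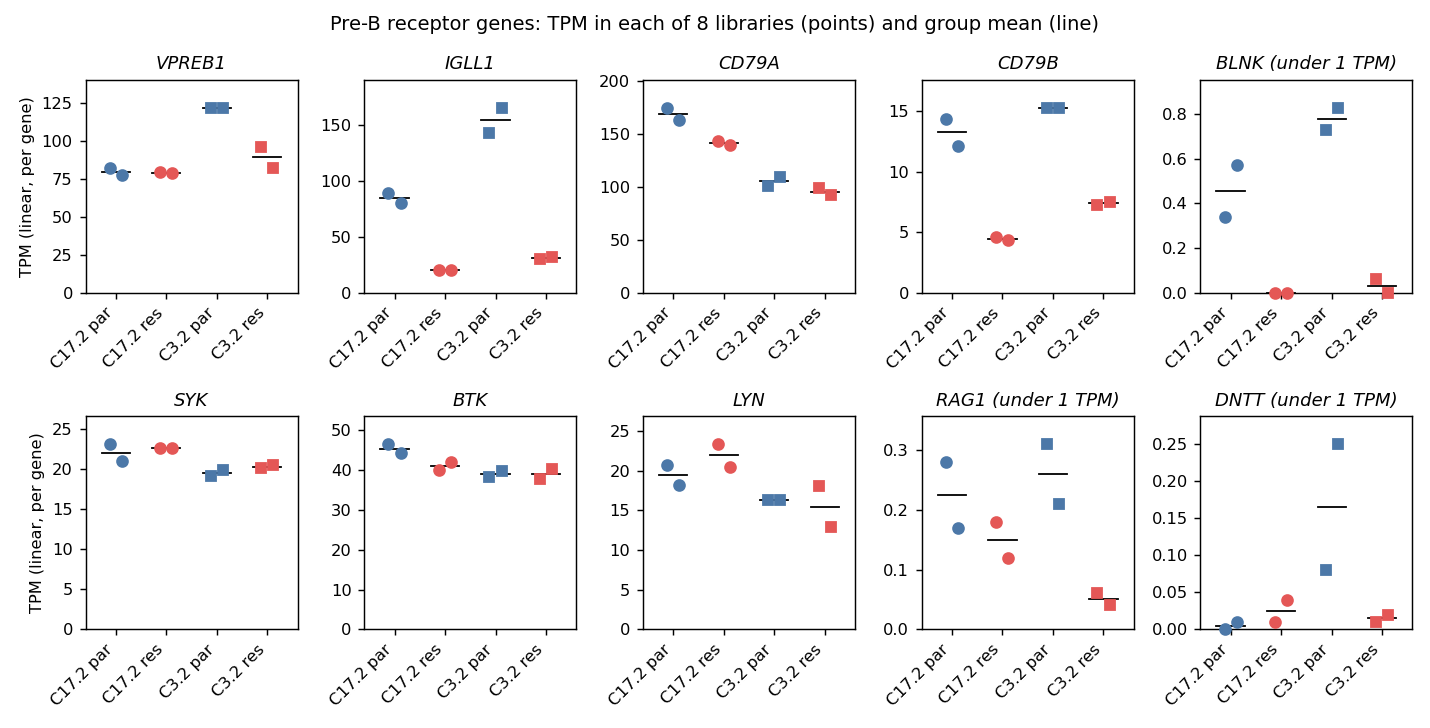
TPM of each of the 10 genes (vertical axes, linear, from 0, each gene on its own scale) in C17.2 and C3.2 parental (par) and resistant (res) cells, with 1 point per library and a line at the mean of 2 libraries. *IGLL1* and *CD79B* lie well below parental levels in both resistant groups, at 20.1 to 31.7 TPM and 4.33 to 7.49 TPM, whereas *SYK*, *BTK* and *LYN* stay between 12.9 and 46.55 TPM in all groups.

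The question for each clone was whether RNA of the receptor and its relay differed between resistant and parental cells. The genes were chosen with earlier results of these data known, so their counts are no independent evidence. In C17.2, 4 of the 7 tested genes were lower in resistant cells (*IGLL1*, *CD79B*, *CD79A* and *BTK*) and none was higher. Over all tested genes in that clone, 27.3% passed the test, 13.9% as lower and 13.4% as higher. In C3.2, 4 of 7 were lower (*IGLL1*, *CD79B*, *VPREB1* and *CD79A*) and none was higher, where 11.4% of all genes passed, 6.9% as lower and 4.46% as higher. The median change of the 7 genes was -0.30 in C17.2 and -0.20 in C3.2, against 0 for all tested genes in each after scaling. On TPM as deposited it was -0.14 in each clone, against 0.13 in C17.2 and 0.05 in C3.2 for all tested genes. *BLNK*, *RAG1* and *DNTT* were below 1 TPM in every library and were not tested. In the parental groups *CD79A*, *IGLL1* and *VPREB1* stood at 77.8 to 175 TPM, *BTK*, *SYK* and *LYN* at 16.3 to 46.55, and *CD79B* at 12.2 to 15.3.

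**Figure D2:**
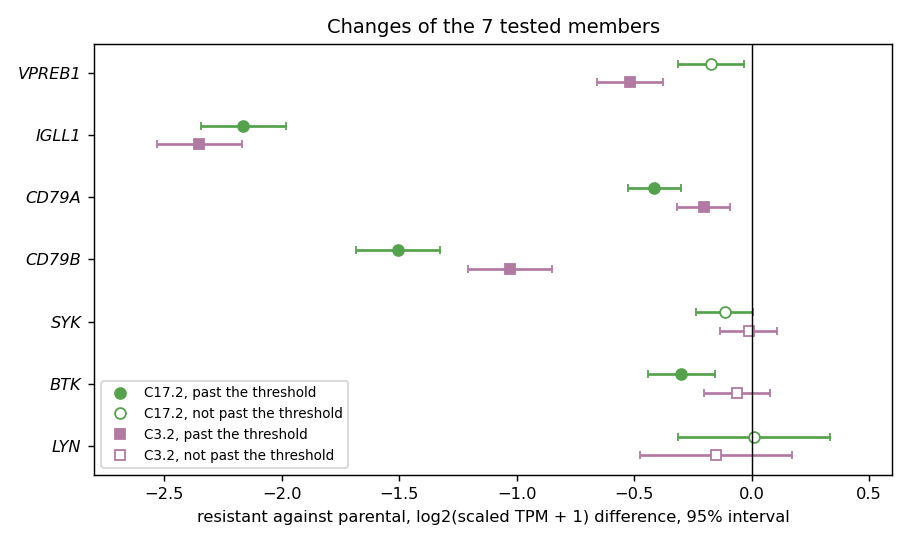
Change of each of the 7 tested genes on the log2(scaled TPM + 1) scale (horizontal axis), resistant against parental, in C17.2 (circles) and C3.2 (squares), with 95% intervals from limma. Filled symbols passed the test at 0.05 adjusted p. *IGLL1* and *CD79B* lie farthest from 0, at -2.16 and -1.51 in C17.2 and -2.35 and -1.03 in C3.2.

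*IGLL1* (ENSG00000128322.7, chr22:23573125-23580302, reverse strand, 3 exons) encodes λ5, which supplies the constant-like domain of the surrogate light chain. It was at 89.6 and 80.6 TPM in C17.2 parental and at 20.1 and 20.5 TPM in C17.2 resistant libraries. In C3.2 it was at 143 and 166 TPM in parental and at 29.96 and 31.7 TPM in resistant libraries. All 4 resistant libraries lay below all 4 parental libraries, and parental cells had 4.19-fold (C17.2) and 5.01-fold (C3.2) the mean TPM of resistant cells. The change was -2.16 (95% interval -2.34 to -1.98, adjusted p = 2.28e-05) in C17.2. It was -2.35 (95% interval -2.53 to -2.17, adjusted p = 0.000122) in C3.2. The clones' changes differed by 0.19 (C17.2 minus C3.2, 95% interval -0.07 to 0.44, adjusted p = 0.314), which did not pass the test. In bulk RNA, fewer cells that express a gene and less RNA per cell cannot be told apart. The last exon of *IGLL1* resembles those of *IGLL5* and the λ constant genes, so reads may have been divided among them, while the pseudogenes *IGLL3P* and *IGLL4P* reached at most 0.31 and 0 TPM.

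*VPREB1* (ENSG00000169575.4, chr22:22244780-22245515, forward strand, 2 exons) encodes the variable-like partner of λ5. It was at 82.0 and 77.8 TPM in C17.2 parental and at 79.3 and 78.9 TPM in C17.2 resistant libraries, which lay within the parental range. In C3.2 it was at 122 TPM in both parental libraries and at 96.4 and 82.4 TPM in the resistant libraries, without overlap. The change was -0.17 (95% interval -0.31 to -0.03, adjusted p = 0.0714) in C17.2, which did not pass the test. That value depended on scaling, with -0.01 on TPM as deposited (limma, adjusted p = 0.921). It passed under 2 of 8 other ways of processing. *VPREB1* fell by 0.52 in C3.2 (SE 0.058, adjusted p = 0.00476), a call lost when C3.2 was fitted alone (adjusted p = 0.0847) or without C3.2 parental replicate 1 (adjusted p = 0.0547). The 2 changes differed by 0.34 (SE 0.082, adjusted p = 0.0493), and 9.91% of all genes had changes that differed between the clones. That call held under 2 of 7 other ways of processing and in 1 of 8 fits that left out 1 library.

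Both chains form 1 light chain, and the ratio of their TPM within a library does not depend on the scaling between libraries. *IGLL1* over *VPREB1* was 1.09 and 1.04 in C17.2 parental and 0.254 and 0.260 in C17.2 resistant libraries. It was 1.17 and 1.36 in C3.2 parental and 0.311 and 0.385 in C3.2 resistant libraries. Parental cells thus had 4.14-fold (C17.2) and 3.63-fold (C3.2) the mean ratio of resistant cells, with all resistant libraries below all parental ones. A two-sided exact permutation test gave p = 0.333 in each clone, the smallest that 2 libraries against 2 allow.

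*CD79B* (ENSG00000007312.12, chr17:63928738-63932336, reverse strand, 6 exons) encodes Igβ, 1 of the paired signaling chains of the receptor. It was at 14.4 and 12.2 TPM in C17.2 parental and at 4.61 and 4.33 TPM in C17.2 resistant libraries. In C3.2 both parental libraries were at 15.3 TPM and the resistant libraries at 7.29 and 7.49 TPM. Parental and resistant libraries did not overlap in either clone, with parental means 2.97-fold and 2.07-fold the resistant means. *CD79B* fell by 1.51 in C17.2 (SE 0.074, adjusted p = 7.26e-05) and by 1.03 in C3.2 (SE 0.074, adjusted p = 0.00112). The call in C3.2 narrowly missed the threshold when that clone was fitted alone (adjusted p = 0.0507). The change was larger in C17.2, by -0.48 (SE 0.105, adjusted p = 0.0387), and this difference held under 4 of 7 other ways of processing and in 1 of 8 fits that left out 1 library.

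*CD79A* (ENSG00000105369.9, chr19:41877279-41881372, forward strand, 5 exons) encodes Igα, the partner of Igβ. It was at 175 and 163 TPM in C17.2 parental and at 144 and 139 TPM in C17.2 resistant libraries. C3.2 had 101 and 109 TPM in parental and 98.7 and 92.15 TPM in resistant libraries. Resistant libraries lay below parental ones in both clones, by a small margin in C3.2. *CD79A* fell by 0.41 in C17.2 (SE 0.047, adjusted p = 0.00156). The call held under every alternative run, with a fall of 0.25 to 0.46. The fall of 0.20 in C3.2 was close to the threshold (adjusted p = 0.0409) and passed it under only 2 of 8 other ways of processing and in 2 of 8 fits that left out 1 library. The clones' changes differed by -0.21 (95% interval -0.37 to -0.05, adjusted p = 0.101), which did not pass the test.

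Within libraries, *CD79B* over *CD79A* was 0.0821 and 0.0748 in C17.2 parental and 0.0321 and 0.0311 in C17.2 resistant libraries. It was 0.151 and 0.141 in C3.2 parental and 0.0739 and 0.0813 in C3.2 resistant libraries. Resistant libraries had the lower ratio in each clone, although the ratios of C3.2 resistant and C17.2 parental cells overlapped. Parental cells had 2.48-fold (C17.2) and 1.88-fold (C3.2) the mean ratio of resistant cells. A two-sided exact permutation test gave p = 0.333 in each, again the smallest that 2 libraries against 2 allow.

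**Figure D3:**
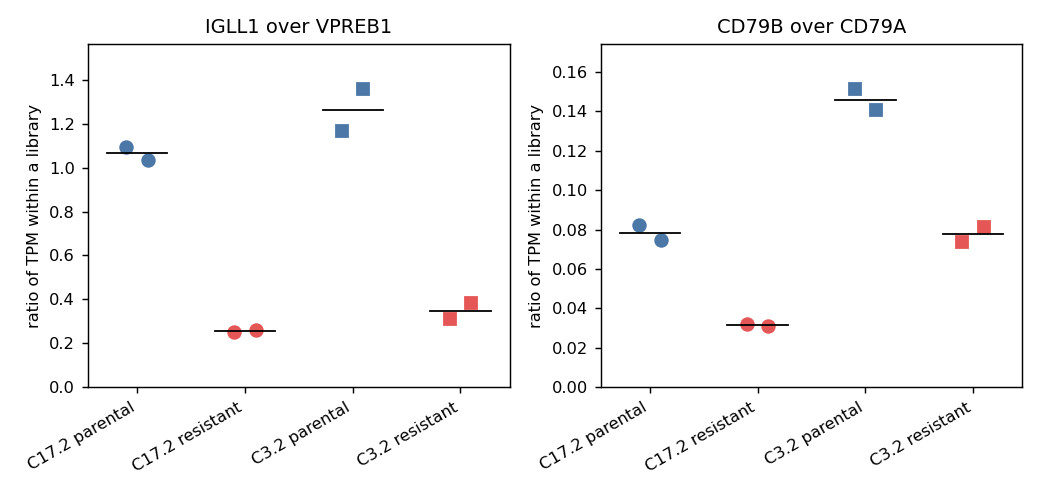
Ratio of TPM within each library (vertical axes, from 0) of *IGLL1* over *VPREB1* (left) and *CD79B* over *CD79A* (right), 1 point per library and a line at the group mean. The *IGLL1* over *VPREB1* ratio is 1.04 to 1.36 in parental and 0.254 to 0.385 in resistant libraries, and the *CD79B* over *CD79A* ratio is lower in resistant than in parental libraries of each clone.

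Of 10 other immunoglobulin and surrogate chain genes, 7 were tested, of which 5 fell in C17.2 (where 13.9% of all tested genes were lower) and 2 in C3.2 (where 6.9% were), with none past the threshold as higher. *VPREB3*, which encodes a chaperone-like relative of VPREB1, was at 57.1 and 50.6 TPM in C17.2 parental and at 5.29 and 4.48 TPM in C17.2 resistant libraries. In C3.2 it was at 49.1 and 54.8 TPM in parental and at 8.77 and 11.1 TPM in resistant libraries. Its parental means were 11.03-fold and 5.22-fold the resistant means, without overlap. *VPREB3* fell by 3.35 in C17.2 (adjusted p = 4.25e-05) and by 2.35 in C3.2 (adjusted p = 0.000534), and these changes differed by -0.999 (SE 0.193, adjusted p = 0.0268). *IGLL5*, a relative of *IGLL1* in the λ locus, fell by 1.98 in C17.2 (adjusted p = 0.000623) and by 1.71 in C3.2 (adjusted p = 0.00371), with resistant libraries at 2.92 to 4.76 TPM and all 4 parental libraries above them.

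The μ heavy chain gene *IGHM*, whose product pairs with the surrogate light chain, was at 202 and 194 TPM in C17.2 parental and at 164 TPM in both C17.2 resistant libraries. C3.2 had 159 and 170 TPM in parental and 169 and 166 TPM in resistant libraries, which lay within the parental range. *IGHM* fell by 0.43 in C17.2 (adjusted p = 0.000954), and the value in C3.2 was -0.04 (adjusted p = 0.577). The difference between these was -0.39 (SE 0.061, adjusted p = 0.0141). Among the light chain constant genes, *IGKC* fell by 1.62 (adjusted p = 0.00438) and *IGLC1* by 1.54 (adjusted p = 0.0196) in C17.2, whereas their values in C3.2 were -0.64 (adjusted p = 0.148) and -1.25 (adjusted p = 0.0697). *IGLC2* (-0.31 and -0.71) and the δ chain gene *IGHD* (-0.07 and 0.17) did not pass in either clone, and *IGLC3*, *IGLC7* and *JCHAIN*, which encodes the joining chain of polymeric antibodies, were below 1 TPM throughout. The λ constant genes are near-identical copies, and how their reads were divided is uncertain.

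*BLNK* (ENSG00000095585.16, chr10:96189171-96271587, reverse strand, 17 exons) encodes the adaptor that joins SYK to BTK and phospholipase Cγ2. It was at 0.34 and 0.57 TPM in C17.2 parental libraries and listed at 0 in both C17.2 resistant libraries. In C3.2 it was at 0.73 and 0.83 TPM in parental and at 0.06 and 0 TPM in resistant libraries. All 4 parental libraries lay above all 4 resistant ones, at levels too low for the filter. When all 30771 genes with any TPM above 0 were tested, *BLNK* fell by 0.53 in C17.2 (adjusted p = 0.0176) and by 0.86 in C3.2 (adjusted p = 0.0119), with no fold given against values of 0. *BLNK* overlaps *ZNF518A* on the opposite strand, which was at 9.96 to 15.5 TPM, and whether counting used the strand was not stated.

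*SYK* (ENSG00000165025.15, chr9:90801787-90898549, forward strand, 14 exons), the kinase recruited to the CD79 tails, was at 23.1 and 20.9 TPM in C17.2 parental and at 22.6 TPM in both C17.2 resistant libraries. C3.2 had 19.2 and 19.9 TPM in parental and 20.1 and 20.5 TPM in resistant libraries. The groups overlapped in C17.2, and in C3.2 the resistant libraries were slightly above the parental ones before scaling. The changes were -0.11 (95% interval -0.24 to 0.01, adjusted p = 0.1497) and -0.01 (95% interval -0.14 to 0.11, adjusted p = 0.909), and both were above 0 on TPM as deposited.

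*BTK* (ENSG00000010671.15, chrX:101349338-101390796, reverse strand, 19 exons), the TEC family kinase downstream of SYK, was at 46.55 and 44.2 TPM in C17.2 parental and at 40.0 and 42.0 TPM in C17.2 resistant libraries. In C3.2 it was at 38.4 and 39.7 TPM in parental and at 37.9 and 40.4 TPM in resistant libraries. The groups did not overlap in C17.2 and did in C3.2. *BTK* fell by 0.30 in C17.2 (SE 0.059, adjusted p = 0.0121). That call was lost on TPM as deposited (-0.14, adjusted p = 0.122) and on leaving out any 1 of the 4 C17.2 libraries (adjusted p 0.0575 to 0.0696). The value in C3.2 was -0.06 (95% interval -0.20 to 0.08, adjusted p = 0.547).

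*LYN* (ENSG00000254087.8, chr8:55879835-56014169, forward strand, 13 exons), the SRC family kinase that phosphorylates the CD79 tails, was at 20.7 and 18.2 TPM in C17.2 parental and at 23.35 and 20.5 TPM in C17.2 resistant libraries. In C3.2 both parental libraries were at 16.3 TPM and the resistant libraries at 18.0 and 12.9 TPM, on either side of them. The changes were 0.01 (95% interval -0.31 to 0.33, adjusted p = 0.973) and -0.15 (95% interval -0.47 to 0.17, adjusted p = 0.512). These intervals are wider than those of *SYK* and *BTK*.

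*RAG1* (ENSG00000166349.9, chr11:36510372-36593156, forward strand, 2 exons), the catalytic subunit of the recombinase, was at 0.28 and 0.17 TPM in C17.2 parental, 0.18 and 0.12 in C17.2 resistant, 0.31 and 0.21 in C3.2 parental and 0.06 and 0.04 in C3.2 resistant libraries. *DNTT* (ENSG00000107447.8, chr10:96304409-96338564, forward strand, 11 exons) was between 0 and 0.04 TPM in C17.2, at 0.08 and 0.25 TPM in C3.2 parental and at 0.01 and 0.02 TPM in C3.2 resistant libraries. In the test of all 30771 genes neither passed, with *RAG1* at -0.10 (adjusted p = 0.402) and -0.29 (adjusted p = 0.0696) and *DNTT* at 0.02 (adjusted p = 0.919) and -0.21 (adjusted p = 0.190). *RAG2*, the recombinase partner on the opposite strand within the *RAG1* gene span, was at 3.84 and 3.82 TPM in C17.2 parental and at 1.54 and 1.74 TPM in C17.2 resistant libraries. C3.2 had 5.81 and 5.77 TPM in parental and 1.03 and 0.63 TPM in resistant libraries. *RAG2* fell by 0.97 in C17.2 (adjusted p = 0.00183) and by 1.99 in C3.2 (adjusted p = 0.000493), and the changes differed by 1.02 (SE 0.160, adjusted p = 0.0146).

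Other genes of the pathway were described from lists, 157 genes in all besides the 10, of which 134 were tested. The lists were chosen with earlier results of these data known, so the shares below are no independent evidence. In C17.2, 67 of the 134 genes passed (50% of those tested, 52 lower and 15 higher), against 27.3% of all genes. In C3.2, 42 passed (31.3%, 32 lower and 10 higher), against 11.4% of all genes. Both clones shared 25 of them as lower (18.7% of 134, against 4.16% of all tested genes) and 2 as higher. The median change over the 134 genes was -0.10 in C17.2 and -0.08 in C3.2. On TPM as deposited the C17.2 counts were 34 lower and 26 higher, with a median of 0.04 where all genes had a median of 0.13. After rescaling over protein-coding genes the C3.2 counts were 24 lower and 19 higher.

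Of 36 tested kinases, adaptors and coreceptors, 14 fell and 6 rose in C17.2, and 9 fell and 2 rose in C3.2. Among all tested genes, 13.9% were lower and 13.4% higher in C17.2, and 6.9% and 4.46% in C3.2. On TPM as deposited, 9 fell and 7 rose in C17.2, and 6 fell and 1 rose in C3.2. After rescaling over protein-coding genes, 6 fell and 4 rose in C3.2, so the balance of this list depended on scaling. *PLCG2*, which encodes the phospholipase Cγ2 that BTK activates, fell by 0.91 in C17.2 (adjusted p = 0.000218) and by 0.50 in C3.2 (adjusted p = 0.0062), from 24.5 and 22.1 to 13.1 and 13.4 TPM in the former. *GAB2*, which encodes a docking adaptor, fell by 1.07 (adjusted p = 4.22e-05) and by 0.49 (adjusted p = 0.00229). *PLCG1* and *LAT*, better known from the T cell receptor relay, rose in C17.2 by 1.09 (adjusted p = 0.00811) and 1.39 (adjusted p = 0.00375). *LAT* went from 3.02 and 4.32 to 12.2 and 12.7 TPM there, and its value in C3.2 was 0.32 (adjusted p = 0.353). *LCK*, a SRC family kinase, fell by 0.55 in C3.2 (adjusted p = 0.00253) and by 0.30 in C17.2 (adjusted p = 0.00654).

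Of 26 tested downstream relays, 8 fell and 2 rose in C17.2, and 3 fell and 1 rose in C3.2. The shares that passed were 38.5% and 15.4%, against 27.3% and 11.4% of all tested genes. On TPM as deposited, 4 fell and 6 rose in C17.2 and 1 rose in C3.2, and after rescaling over protein-coding genes 2 fell and 4 rose in C3.2, so the balance of this list depended on scaling. *RASGRP1*, a RAS activator, fell by 0.97 in C17.2 (adjusted p = 0.000266) and by 0.36 in C3.2 (adjusted p = 0.0227). *NFATC1*, a calcium-responsive transcription factor, fell by 0.57 (adjusted p = 0.00712) and by 0.52 (adjusted p = 0.0231). *AKT1*, the kinase downstream of PI3K, rose by 0.29 (adjusted p = 0.00323) and *BCL10*, part of the NF-κB relay, rose by 0.21 (adjusted p = 0.0256) in C17.2.

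Of 21 tested inhibitors, 9 fell and 3 rose in C17.2, and 4 fell and 5 rose in C3.2. The shares that passed were 57.1% and 42.9%, against 27.3% and 11.4% of all tested genes. On TPM as deposited 6 fell and 5 rose in C17.2, and after rescaling over protein-coding genes 2 fell and 7 rose in C3.2. *DOK3*, which encodes an inhibitory adaptor of B cell receptor signaling, was at 20.2 and 20.3 TPM in C17.2 parental, 5.47 and 5.04 in C17.2 resistant, 30.5 and 31.4 in C3.2 parental and 9.54 and 9.20 in C3.2 resistant libraries, and it fell by 1.90 (adjusted p = 1.97e-05) and 1.69 (adjusted p = 0.000137). *PAG1*, which encodes the membrane adaptor that holds the inhibitory kinase CSK, was at 16.8 and 17.4 TPM in C17.2 parental and at 1.91 and 2.06 TPM in C17.2 resistant libraries. It fell by 2.696 in C17.2 (adjusted p = 8.88e-06) and by 0.32 in C3.2 (adjusted p = 0.03), where it was at 4.70 and 4.84 TPM in parental and at 3.91 and 3.69 TPM in resistant libraries. The 2 changes of *PAG1* differed by -2.37 (SE 0.094, adjusted p = 0.000191). *PTPRC*, which encodes the phosphatase CD45, a protein that can activate as well as restrain SRC family kinases, fell by 2.38 in C17.2 (adjusted p = 7.26e-05), from 9.22 and 8.33 to 0.85 and 1.07 TPM, and was below 0.5 TPM in all C3.2 libraries. *PTPN6*, which encodes the phosphatase SHP-1, rose by 0.53 (adjusted p = 0.000812) and 0.33 (adjusted p = 0.0119), and *CBLB*, a ubiquitin ligase gene, rose by 0.48 (adjusted p = 0.00294) and 0.30 (adjusted p = 0.0359). The inhibitory coreceptor gene *CD72* fell by 0.70 (adjusted p = 0.000497) and 0.63 (adjusted p = 0.00252), and *CSK* rose by 0.32 in C3.2 (adjusted p = 0.0188).

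Of 13 tested genes of recombination and end joining, 3 fell and 3 rose in C17.2, and 1 fell in C3.2, which was *RAG2*. The shares that passed were 46.2% and 7.69%, against 27.3% and 11.4% of all tested genes. On TPM as deposited, 1 fell and 4 rose in C17.2. In C17.2, *POLL*, a repair polymerase gene, fell by 0.44 (adjusted p = 0.0321), *XRCC6*, which encodes Ku70, rose by 0.24 (adjusted p = 0.00432), and *HMGB1*, a cofactor of the recombinase, rose by 0.49 (adjusted p = 0.0249). *HMGB1* has near-identical pseudogenes that could share its reads.

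Of 18 tested transcription factors of the pre-B program, 8 fell and none rose in C17.2, and 8 fell and 1 rose in C3.2. Among all tested genes, 13.9% were lower and 13.4% higher in C17.2, and 6.9% and 4.46% in C3.2. On TPM as deposited, 5 fell and 1 rose in each clone. After rescaling over protein-coding genes, 8 fell and none rose in C17.2, and 6 fell and 2 rose in C3.2. *BCL6*, a repressor expressed on pre-B receptor signaling, was at 13.6 and 14.3 TPM in C17.2 parental, 7.61 and 7.30 in C17.2 resistant, 14.6 and 17.1 in C3.2 parental and 6.77 and 6.93 in C3.2 resistant libraries, and it fell by 0.96 (adjusted p = 0.000695) and 1.17 (adjusted p = 0.00123). *SPI1*, which encodes PU.1, fell by 1.01 in C17.2 (adjusted p = 0.00333), and *MYB* fell by 0.72 in C3.2 (adjusted p = 0.000597). *PAX5*, the B-lineage commitment factor, was the factor that rose in C3.2, by 0.27 (adjusted p = 0.0229). *TCF3* and *EBF1*, factors of the surrogate light chain genes, are named here after their values were seen. Whether either has a part in the changes of those genes was not tested. *TCF3* fell by 0.52 in C17.2 (adjusted p = 0.00198) and by 0.41 in C3.2 (adjusted p = 0.0127), and *EBF1* was at -0.09 (adjusted p = 0.309) and -0.19 (adjusted p = 0.0878).

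**Figure D4:**
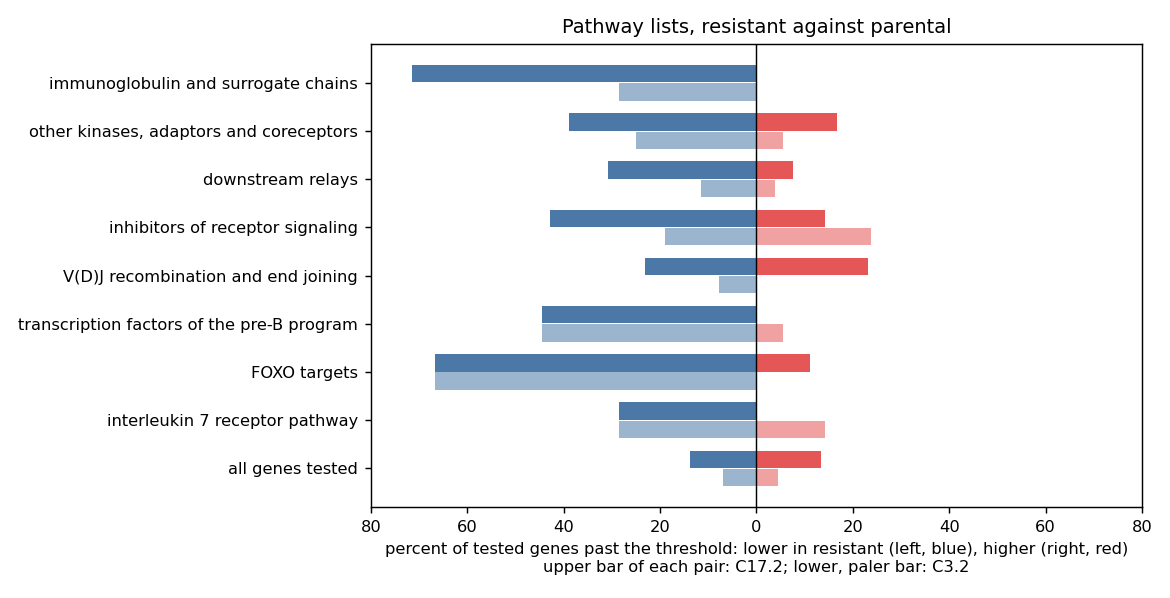
Percent of tested genes of each pathway list that passed the test (horizontal axis), to the left as lower and to the right as higher in resistant cells, for C17.2 (upper bar of each pair) and C3.2 (lower, paler bar), with all tested genes in the last row. The lists hold 7 to 36 tested genes each, share some genes, and have no replicate error, and 13.9% and 6.9% of all tested genes were lower in C17.2 and C3.2.

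FOXO factors are held back by PI3K signaling and drive the RAG genes and the interleukin 7 receptor. Of 9 tested FOXO targets, 6 fell in each clone and 1 rose in C17.2. Over all tested genes, 13.9% were lower and 13.4% higher in C17.2, and 6.9% were lower in C3.2. *RAG2* and *IL7R* count here and again in the lists of recombination and of the interleukin 7 receptor pathway. Whether FOXO activity changed was not tested. *TXNIP*, a glucose-responsive FOXO target, fell by 1.18 in C17.2 (adjusted p = 0.00016) and by 0.36 in C3.2 (adjusted p = 0.0267). *IL7R*, which encodes the receptor α chain for interleukin 7, was at 23.3 and 20.9 TPM in C17.2 parental and at 17.6 and 21.0 TPM in C17.2 resistant libraries, which overlapped. In C3.2 it was at 30.4 and 30.5 TPM in parental and at 7.82 and 7.43 TPM in resistant libraries, a parental mean 3.99-fold the resistant mean. *IL7R* fell by 1.94 in C3.2 (adjusted p = 0.000137) and by 0.34 in C17.2 (adjusted p = 0.0158), and the changes differed by 1.60 (SE 0.101, adjusted p = 0.000817). *IL2RG*, which encodes the common γ chain that completes the receptor, fell by 1.58 in C3.2 (adjusted p = 0.000137) and by 0.46 in C17.2 (adjusted p = 0.00237), with a difference of 1.12 (SE 0.082, adjusted p = 0.00134). *JAK3*, the kinase bound to that chain, rose by 0.40 in C3.2 (adjusted p = 0.0107). In all, 2 of 7 tested genes of this pathway fell in C17.2, and 2 fell and 1 rose in C3.2. The shares that passed were 28.6% and 42.9%, against 27.3% and 11.4% of all tested genes. On TPM as deposited 1 fell and 2 rose in C17.2.

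*IGLL1* and *CD79B* were the tested genes of the set whose 4 group means spanned at least 1 on the log2(scaled TPM + 1) scale, by 3.18 and 1.86. The protein-coding genes whose profiles over the 8 libraries lay closest to *IGLL1* were *BAHCC1* (root mean square difference of 0.182 on that scale), *TCL1A*, which encodes a coactivator of AKT (0.249), and *DOK3* (0.264). Closest to *CD79B* were *NMB*, which encodes neuromedin B (0.0842), *MMP11*, a matrix metalloproteinase gene (0.137), and *PRSS57*, a serine protease gene (0.199). These likenesses describe 8 libraries in 4 groups, on a scale that understates changes at low TPM, so near profiles need not have equal fold changes. In C17.2, *BAHCC1* went from 5.27 and 5.25 TPM in parental to 0.32 and 0.27 TPM in resistant libraries. *NMB* went from 2.65 and 2.39 to 0.32 and 0.07 TPM there. The other genes named as closest stayed above 1 TPM in all libraries.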

How the data were processed

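Total RNA depleted of ribosomal RNA was sequenced from 8 libraries of SEM cells (2 each of C17.2 and C3.2, parental and resistant). Per the study's methods and the submitters' processing notes, the authors trimmed reads with Trim Galore 0.6.3, aligned them to GRCh38 with STAR 2.7.9a and quantified genes on Gencode release 31 with RSEM 1.3.1. The deposited values are the authors' gene-level TPM, not scaled from library to library. The labels describe single-end and the study's methods paired-end reads, and use of the strand was not given in the sources used here. TPM keeps no depth, so depth per library and counting error are unknown.

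Groups came from the clone label. Genes with at least 1 TPM in at least 1 library were kept (15614 of 60754). Each library was divided by a trimmed mean of its log2 ratios to the average library, leaving out the outer 30% of the ratios and the outer 5% by abundance on each side. Log2(scaled TPM + 1) was fitted in limma 3.58.1 (R 4.3.3; lmFit, contrasts.fit, eBayes with an intensity trend) as 1 model of 4 groups, with a two-sided threshold of 0.05 on Benjamini-Hochberg adjusted p. Limma-voom, used in the study, needs counts and was not run. Resistant cells were compared with parental cells per clone, and the difference between these changes was tested. The code was checked on simulated data.

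The genes and lists were chosen with earlier results of these data known, and so are no independent evidence. Named were the 10 genes and all immunoglobulin and surrogate chain genes. Named too were, per other list and clone, up to 2 rises and 2 falls past the threshold with the largest change, a mean of at least 5 TPM in a group and no overlap of groups. For each of the 10 genes whose group means spanned at least 1 on the log2 scale, the 3 protein-coding genes with the nearest centred profile were named. Positions are those of Gencode release 44 (GRCh38), and upstream sequences from RefSeq. Sequences and plots were handled in Python 3.11.15 with pandas 2.3.3 and matplotlib 3.10.9. Alternatives in scaling, pseudocount, filter, variance model and libraries are given in the closing section.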

Additional observations from a re-analysis of the deposited data

Results flagged for a closer look

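For 2 of the 7 tested genes, the test of the difference between the clones passed the threshold in limma, as it did for 9.91% of all tested genes. *VPREB1* changed less in C17.2 (-0.17) than in C3.2 (-0.52), a difference of 0.34 on the log2(scaled TPM + 1) scale (adjusted p = 0.0493, and 0.0483 to 0.0868 over 7 other ways of processing). *VPREB1* was at 122 TPM in both C3.2 parental libraries and between 77.8 and 96.4 TPM in the other 6. The change of *CD79B* in C17.2 differed from that in C3.2 by -0.48 (adjusted p = 0.0387, and 0.0281 to 0.0883 over 7 other ways of processing). *CD79B* was at 4.33 and 4.61 TPM in C17.2 resistant and at 7.29 and 7.49 TPM in C3.2 resistant libraries. On leaving out 1 library at a time, each of these calls remained in 1 of 8 fits, the one without C3.2 resistant replicate 1, where *BTK* passed as well (-0.32, adjusted p = 0.0253).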

How the results depend on the processing

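No fold change of the 7 tested genes that passed the test turned its direction under any alternative run. *IGLL1* in both clones, and *CD79A* and *CD79B* in C17.2, passed under all 8 other ways of processing and all 8 fits without 1 library. Over those alternatives, 3 to 5 of the genes passed in C17.2. In C3.2, 1 gene of the set (*IGLL1*) and 74 of all genes passed when the 4 libraries of the clone were fitted alone, against 4 and 1773, and 1167 of all genes passed with every gene above 0 TPM tested. Of the genes of the set, 2 differed between the clones, against 0 on TPM as deposited, with the wider filter and without the intensity trend, and 1 after rescaling over protein-coding genes or quantile normalization (limma, with 2, 5, 4, 4 and 4 genes at an unadjusted p under 0.05 in that order). Leaving out 1 library at a time gave 2 to 4 genes of the set in C3.2 and 0 to 3 for the difference (3 to 5 at an unadjusted p under 0.05). Over all genes it gave 2372 to 4545 in C17.2, 326 to 1789 in C3.2 and 540 to 1748 for the difference. The counts moved by over 1.5 times without either C17.2 parental library or C17.2 resistant replicate 2 (2372, 2526 and 2644 in C17.2). In C3.2 they did so without either C3.2 parental library (326 and 399), C3.2 resistant replicate 2 (851) or either C17.2 parental library (988 and 981). For the difference, leaving out any C17.2 library or either C3.2 parental library did so (540 to 867). Of the other pathway genes, 42 passed in C3.2, against 27 on TPM as deposited, 4 with the clone alone and 13 without either of its parental libraries. Of calls over all genes, 49.1% were higher in C17.2, against 75.1% on TPM as deposited (where the median of all genes shifted by 0.13) and 64.6% after rescaling over protein-coding genes. In C3.2, 39.3% were higher, against 57.8%, 69.7% and 50.8% (quantile normalization). The causes were not tested. No paired analysis was possible because the labels give no replicate numbers that groups share.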

Other observations

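Of the 134 tested pathway genes, 4 passed the test in opposite directions in the clones, against 128 of 15614 over all tested genes. *FYN*, which encodes a SRC family kinase, fell by 0.74 in C17.2 (79.7 and 72.2 to 47.5 and 53.7 TPM, adjusted p = 0.000572) and rose by 0.26 in C3.2 (34.2 and 32.4 to 42.6 and 41.2 TPM, adjusted p = 0.0493). *ITPR1*, which encodes the calcium channel of the endoplasmic reticulum that opens on receptor signaling, fell by 0.39 (adjusted p = 0.00642) and rose by 0.42 (adjusted p = 0.0125). *VAV2*, which encodes an exchange factor, fell by 0.27 (adjusted p = 0.0412) and rose by 0.38 (adjusted p = 0.026). *ZAP70*, a relative of *SYK*, rose by 0.63 in C17.2 (7.82 and 7.03 to 14.3 and 12.8 TPM, adjusted p = 0.00555) and fell by 0.63 in C3.2 (9.05 and 9.67 to 6.76 and 5.27 TPM, adjusted p = 0.0142). The difference between the clones passed for all 4, at -0.996 for *FYN*, -0.81 for *ITPR1*, -0.65 for *VAV2* and 1.27 for *ZAP70* (adjusted p = 0.00244, 0.00479, 0.0164 and 0.00483, all from limma).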
